A study of Mus musculus with 19 samples.

Results

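The transcripts described here encode the SNAREs that fuse vesicles between the endoplasmic reticulum (ER) and the Golgi, together with SCFD1, a Sec1/Munc18 (SM) protein that works with them. They were chosen by name, as Bet1, Gosr1, Gosr2, Sec22b, Stx5a, Ykt6, Stx18, Use1, Bnip1 and Scfd1, and all 10 were among the 19716 genes of the deposited table and among the 19635 tested. All 19 libraries came from mouse embryonic fibroblasts labelled as a Sec24D knockout line, controls included; the labels name neither the allele nor the number of clones. In 4 groups, cells received 50 nM scrambled siRNA (n = 4), siRNA against Sec24B (n = 5), 150 nM scrambled siRNA (n = 5), or siRNAs against Sec24A, Sec24B and Sec24C together (n = 5, called the triple knockdown here). The knockdown labels give 48 h of treatment, and the culture protocol gives 50 nM for the Sec24 siRNAs. Whether the triple knockdown used 50 nM of each siRNA, and so 150 nM in all, is not stated. Which scrambled dose matches it is therefore taken from the study's set of groups. Results against the 50 nM control are given as well for all 10 transcripts, and for only some of the partners named. Nothing in the labels says that replicates were separate cultures, so the p-values below measure the spread between these libraries, which may be technical.

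SEC24 is the cargo-binding subunit of the COPII coat, which packages newly made proteins into vesicles at the ER. SNAREs are themselves COPII cargo: SEC24 proteins bind syntaxin 5, membrin (GOSR2), BET1 and SEC22B, so that a vesicle leaves the ER with the fusion machinery it needs. At the Golgi, a Qa-SNARE, a Qb-SNARE, a Qc-SNARE and an R-SNARE zip into a bundle that pulls the membranes together, and a separate set on the ER (STX18, BNIP1, USE1 and SEC22B) receives the vesicles that return. The siRNAs target transcripts of coat subunits. The comparisons below ask how the transcripts of the fusion machinery differ between each knockdown and its scrambled siRNA control.

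Values are normalised read counts, that is, read counts divided by 1 factor per library by the authors; libraries held 9101855 to 19709672 reads. The targeted transcripts matched the labels. Sec24b was lower in the Sec24B knockdown (log2 fold change -1.21 ± 0.10 SE, limma adjusted p = 2.01e-08) and in the triple knockdown (-1.29 ± 0.10, adjusted p = 1.31e-10), where Sec24c (-1.79 ± 0.05, adjusted p = 1.21e-17) and Sec24a (-0.76 ± 0.13, adjusted p = 4.94e-05) were also lower. Sec24d was still counted in every library (223 to 563); without the position of the deleted part, this says nothing about the knockout. Triple knockdown replicates 1 and 5 stood apart: they had the lowest Sec24a (299 and 403, against 572 to 583 in replicates 2, 3 and 4), and Sec24a fell by 0.47 on the log2 scale without them. They also differed from each other. Chi-square per gene between read counts was 23.7 for replicates 1 and 5. Against replicates 2, 3 and 4 it was 44.2 to 45.8 for replicate 1 and 15.7 to 18.6 for replicate 5, and among those 3 it was 2.5 to 3.3. Results for the 10 transcripts and the partners named are given without replicates 1 and 5 where a call was lost or gained or a called value moved by over 1.5 times. Of the 10 fibroblast markers looked up, 9 were in the table and 8 had means over 100, with Lum near 0. Leukocyte, endothelial, epithelial and pluripotent markers summed to at most 156 in any library, and Des, the 1 skeletal muscle marker in the table, to at most 294.

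Compared per kilobase of annotated exon, the level of the 10 transcripts spanned a 13.5-fold range in the 50 nM scrambled libraries. Ykt6, the R-SNARE that is held on membranes by lipid anchors, was highest at 820 ± 32.0 normalised counts per kilobase (SD, n = 4). Gosr2 followed at 644 ± 34.8 and Use1 at 370 ± 39.2, and the libraries of these 3 did not overlap. Sec22b (204 ± 12.7), Stx5a (173 ± 6.55) and Gosr1 (166 ± 12.6) lay in the middle, with Stx5a and Gosr1 overlapping. Stx18 (104 ± 1.95) stood above Bnip1 (73.0 ± 5.42) and Bet1 (72.2 ± 2.56), which overlapped, and Scfd1 was lowest at 60.6 ± 5.14. Scfd1 is divided by 13162 annotated exon bases, the most of the 10, so its level per kilobase is the most sensitive to isoforms that these cells may not make. In the triple knockdown Gosr2 had the highest mean, 902 ± 43.8 against 843 ± 88.0 for Ykt6 (SD, n = 5), but the libraries of the 2 genes overlapped.

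In the triple knockdown 8 of the 10 transcripts rose against 150 nM scrambled siRNA (limma adjusted p below 0.05), where 16.8% of all genes tested were called higher and 17.2% lower. Among genes with a mean of at least 100 normalised counts, as all 10 have, 24.7% were called higher. The same 8 had every triple knockdown library above every control library, against 10.1% of all genes. The other 2, Ykt6 and Bnip1, did not pass. The median log2 fold change over the 10 was 0.43, beside 0.01 over all genes. Fibroblast markers moved in the same comparison: their summed level was 317143 to 344216 in the triple knockdown and 461724 to 561657 in its control. Collagen and fibronectin made up most of that sum, with Col1a1 at 84994 normalised counts on average against 165176, while Dcn stood at 657 against 494 and Pdgfra at 134 against 142. Leukocyte and macrophage markers, of which Cd68 supplied most, summed to 52.5 to 77.9 against 123 to 156. The part of these shifts in the results was not tested, and in such bulk RNA fewer cells of a type and less RNA per cell cannot be told apart.

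**Figure D1:**
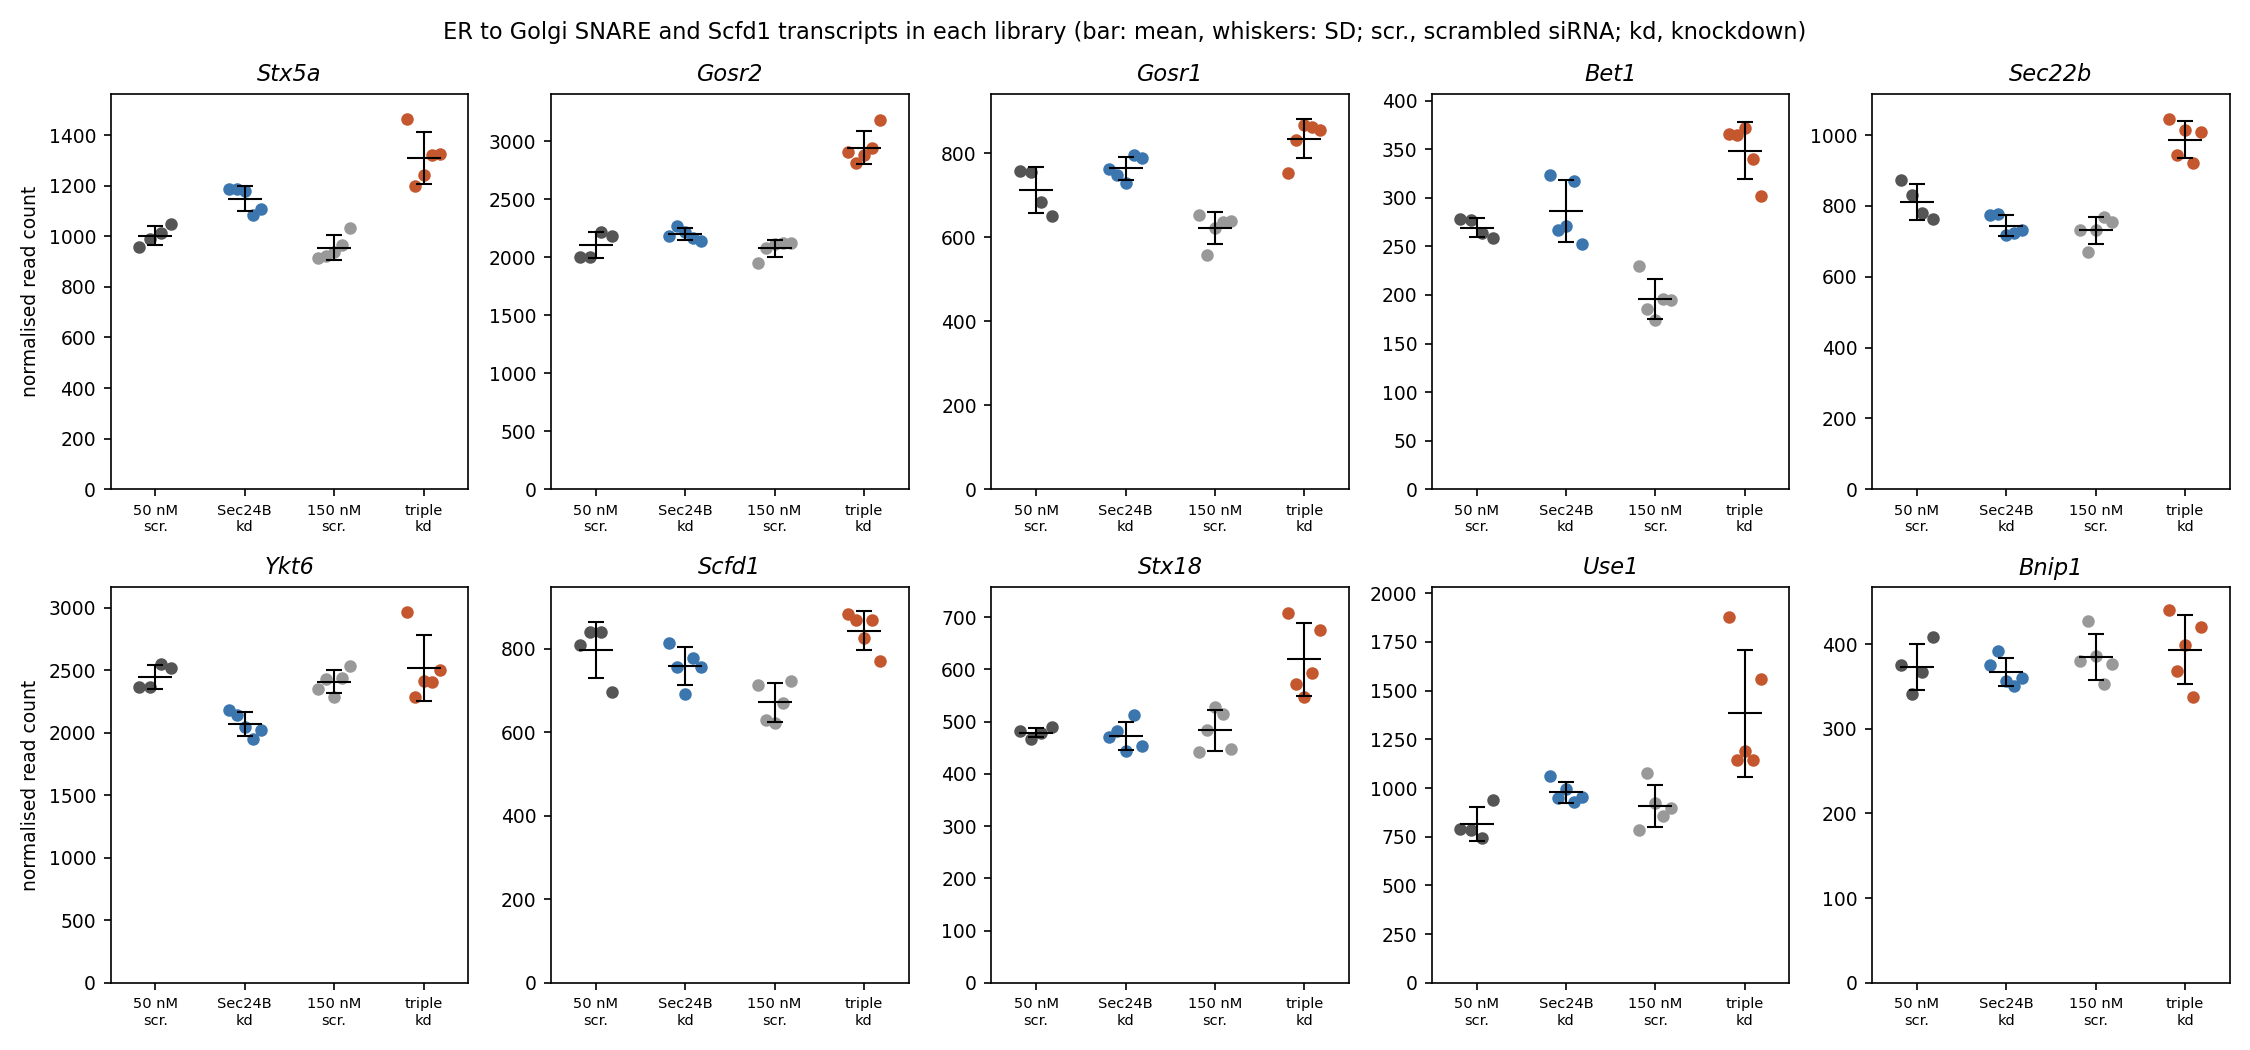
Normalised read count (vertical axes, linear, from 0) of each of the 10 transcripts in every library of the 4 groups, with points for libraries, a bar for the mean and whiskers for the SD. The 5 triple knockdown libraries lie above all 5 libraries of the 150 nM control for 8 transcripts, and overlap them for Ykt6 and Bnip1.

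Stx5a encodes syntaxin 5, the Qa-SNARE around which the Golgi-side complexes form (ENSMUSG00000010110, chromosome 19, 8741413 to 8756069, plus strand, GRCm38). The 5 triple knockdown libraries held 1462, 1197, 1241, 1322 and 1324 normalised counts, and the 5 libraries with 150 nM scrambled siRNA held 915, 921, 939, 966 and 1035. The groups do not overlap, and replicate 1 of the knockdown was the highest. The log2 fold change was 0.45 ± 0.06 (SE; adjusted p = 9.99e-07), a fold of 1.37. The RefSeq promoters (GRCm38.p6, 250 bases before to 50 bases after the start) of all 10 genes, 13 promoters in all, were searched on both strands. The letters sought were TGACGTGG, the core of the element bound by XBP1 and ATF6 in the unfolded protein response. Whether that response has a part in the changes of these transcripts was not tested. The letters were in 0.676% of 32851 mouse promoters and in 2 of the 13, a promoter of Stx5a and that of Scfd1. Another Stx5a promoter, with a window from 8741553, did not hold them. Both promoters are shown because they carry the match, with TGACGTGG or its reverse complement in capitals, 5′ to 3′ on the plus strand. The Stx5a window is chr19:8741174-8741473 and the Scfd1 window chr12:51377263-51377562.
Stx5a: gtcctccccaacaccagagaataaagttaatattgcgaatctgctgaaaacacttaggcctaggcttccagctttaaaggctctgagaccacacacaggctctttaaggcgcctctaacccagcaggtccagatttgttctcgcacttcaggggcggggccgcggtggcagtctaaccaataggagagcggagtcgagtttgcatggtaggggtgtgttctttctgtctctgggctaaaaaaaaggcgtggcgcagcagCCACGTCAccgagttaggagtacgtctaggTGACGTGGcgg
Scfd1: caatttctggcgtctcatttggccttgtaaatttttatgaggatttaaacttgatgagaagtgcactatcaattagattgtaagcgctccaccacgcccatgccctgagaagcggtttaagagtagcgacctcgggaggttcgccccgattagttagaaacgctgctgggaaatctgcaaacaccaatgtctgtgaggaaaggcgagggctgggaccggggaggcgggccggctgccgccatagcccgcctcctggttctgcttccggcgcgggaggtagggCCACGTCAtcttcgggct
In the Stx5a window the letters occur at both ends of a short stretch after the start, on the minus strand at positions 10 to 17 and on the plus strand at 40 to 47, counted with the first base after the 250 upstream bases as 1. Only 2 of all the promoters held the letters more than once. Scfd1 has its match at positions 33 to 40, on the minus strand. A second element of that response, ERSE, was in 0.119% of promoters, and TGATGNAA, a core of the elements bound by ATF4 with C/EBP proteins, in 3.97%; neither was in the 13 promoters of the 10 genes. These matches are letters in a window, not binding sites.

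Gosr2 encodes membrin, a Qb-SNARE of the ER to Golgi step (ENSMUSG00000020946, chromosome 11, 103676849 to 103697898, minus strand). Triple knockdown libraries had 2904, 2815, 2882, 2941 and 3188 normalised counts, and control libraries 1952, 2077, 2112, 2126 and 2126. The gap between the groups was larger than the spread within either. On the log2 scale it rose by 0.50 ± 0.05, with the smallest adjusted p of the 10 genes (2.05e-08). An RNA on the opposite strand, C130046K22Rik, shares 149 exon bases with Gosr2; its own mean was 49.7 normalised counts over the 19 libraries.

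Gosr1, the Qb-SNARE of transport within the Golgi known as GOS28 (ENSMUSG00000010392, chromosome 11, 76726602 to 76763579, minus strand), had 754 to 867 normalised counts in the triple knockdown and 557 to 653 in its control. The rise was 0.42 ± 0.06 on the log2 scale (adjusted p = 6.18e-06), a fold of 1.34. Against the 50 nM control it was 0.23 (adjusted p = 0.00795).

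Bet1, the Qc-SNARE that pairs with membrin and syntaxin 5 (ENSMUSG00000032757, chromosome 6, 4076899 to 4086972, minus strand), had the largest fold of the 10 against 150 nM scrambled siRNA. Its normalised counts were 365, 365, 372, 340 and 301 in the triple knockdown and 230, 185, 174, 196 and 195 with 150 nM scrambled siRNA. That is 1.78-fold, or 0.83 ± 0.09 on the log2 scale (95% confidence interval 0.65 to 1.01, adjusted p = 5.12e-08). The size depended on the control, since the 2 scrambled doses differed for this gene. Against the 50 nM libraries, which held 278, 277, 264 and 259 normalised counts, the triple knockdown was higher by 0.37 (log2, adjusted p = 0.00308), less than Use1, Gosr2 and Stx5a in that comparison.

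Both R-SNAREs were measured. Sec22b, the R-SNARE used in both directions between ER and Golgi (ENSMUSG00000027879, chromosome 3, 97901190 to 97923276, plus strand), had 1045, 943, 1013, 920 and 1009 normalised counts in the triple knockdown and 732, 670, 731, 769 and 756 in the control. It rose by 0.43 ± 0.06 (log2, adjusted p = 2.04e-06), and against the 50 nM control the value was 0.28 (adjusted p = 0.000793). Ykt6 (ENSMUSG00000002741, chromosome 11, 5955693 to 5967780, plus strand) had 2963, 2285, 2414, 2406 and 2504 normalised counts in the triple knockdown and 2351, 2427, 2286, 2440 and 2535 in the control. Replicate 1 of the knockdown lay above the control libraries, and the other 4 spread over the same range as the control. The log2 fold change was 0.06 ± 0.06, with a 95% confidence interval of -0.07 to 0.18 (adjusted p = 0.513). Without replicates 1 and 5 the estimate was -0.02.

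Scfd1 encodes the SM protein also called SLY1, which binds syntaxin 5 and syntaxin 18 and promotes assembly of their complexes (ENSMUSG00000020952, chromosome 12, 51377510 to 51450101, plus strand). Its triple knockdown libraries held 883, 869, 826, 870 and 771 normalised counts, and the 150 nM control libraries 713, 631, 622, 670 and 724. Every knockdown library was above every control library, and the log2 fold change was 0.33 ± 0.07 (adjusted p = 0.000337). The call depended on the control: the 50 nM scrambled libraries held 811, 840, 841 and 698, and against them the value was 0.08 (adjusted p = 0.400).

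On the ER side, Stx18 and Use1 rose and Bnip1 did not pass. Stx18, the Qa-SNARE of retrograde fusion at the ER (ENSMUSG00000029125, chromosome 5, 38038742 to 38137765, plus strand), had 708, 572, 547, 593 and 675 normalised counts in the triple knockdown against 441, 485, 529, 514 and 448. The groups came close but did not overlap, and the change was 0.35 ± 0.07 (log2, adjusted p = 0.00047), or 0.24 (adjusted p = 0.0068) without replicates 1 and 5. On the opposite strand Stx18 shares 908 exon bases, 19.8% of its own, with Gm42858, an unclassified transcript counted at a mean of 2.79, and 574 bases, 12.5%, with Nsg1; the sources used here do not say whether reads were assigned by strand. Nsg1 moved the other way in this comparison, from 1515 ± 53.3 to 1051 ± 141 normalised counts (SD, n = 5; log2 fold change -0.54 ± 0.07, adjusted p = 6.64e-07, and -0.86 against the 50 nM control).

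Use1 encodes a Qc-SNARE of the same ER complex (ENSMUSG00000002395, chromosome 8, 71366848 to 71369732, plus strand). The triple knockdown libraries held 1878, 1145, 1191, 1141 and 1558 normalised counts, and the control libraries 784, 1076, 922, 857 and 897. All knockdown libraries were above the control, but replicates 1 and 5 were far above the other 3. With all libraries the log2 fold change was 0.58 ± 0.11 (adjusted p = 0.000158), a 1.5-fold rise. Without replicates 1 and 5 it was 0.36 (adjusted p = 0.000482), and against the 50 nM control, with all knockdown libraries, 0.74 (adjusted p = 2.16e-05).

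Bnip1, the Qb-SNARE of the complex, also known as SEC20 (ENSMUSG00000024191, chromosome 17, 26781066 to 26792565, plus strand), had 440, 368, 400, 338 and 420 normalised counts in the triple knockdown and 380, 428, 386, 353 and 377 in the control. The groups overlapped, with a log2 fold change of 0.03 ± 0.08 and a 95% confidence interval of -0.13 to 0.18 (adjusted p = 0.822). Of the 3 Q-SNAREs of the ER complex, then, the Qa- and Qc-SNARE passed the test and the Qb-SNARE did not.

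**Figure D2:**
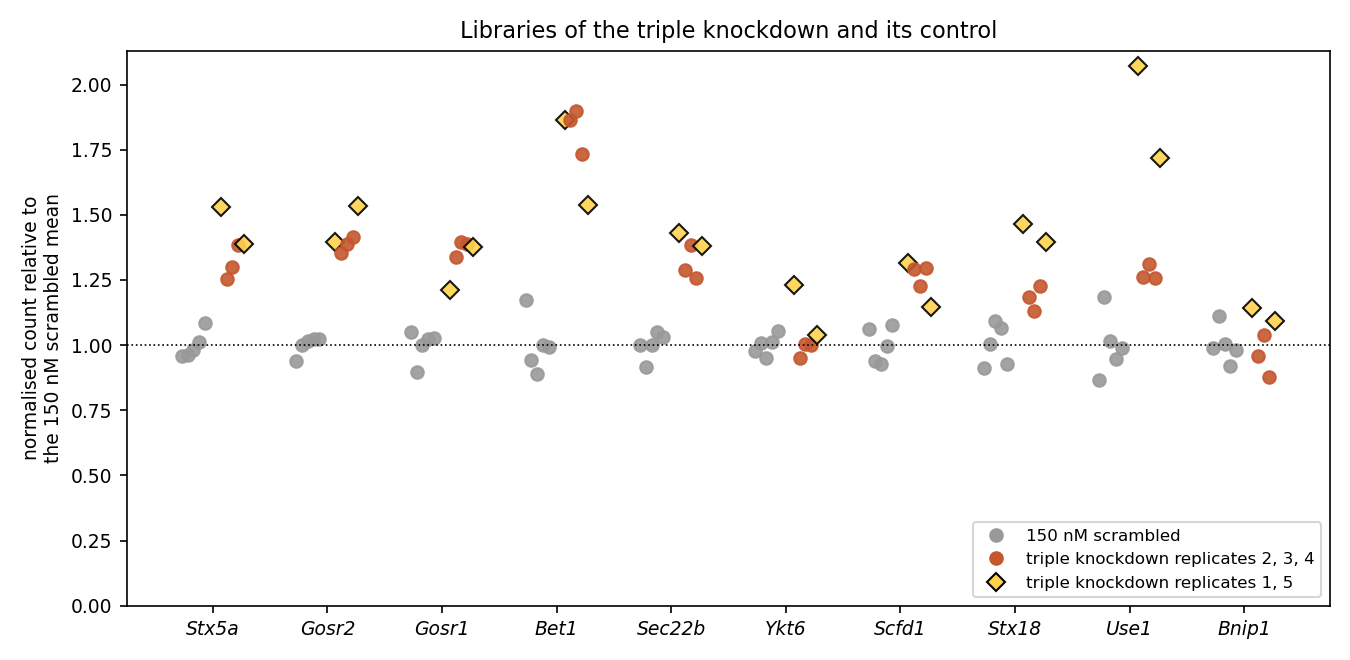
Normalised count of each library divided by the mean of the 5 libraries with 150 nM scrambled siRNA (vertical axis, linear), for the triple knockdown and its control, with triple knockdown replicates 1 and 5 as diamonds. These 2 libraries lie above the other 3 for Stx5a, Ykt6, Stx18, Use1 and Bnip1, by the widest margin for Use1 (1878 and 1558 against at most 1191).

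Replicates 1 and 5 of the triple knockdown were both above replicates 2, 3 and 4 for 5 of the 10 transcripts (Stx5a, Ykt6, Stx18, Use1 and Bnip1), and both were below them for none. Over all genes tested, 21.3% had both above and 20.3% both below. Sec24a, Sec24b and Sec24c were lowest in those 2 libraries. For Stx5a the margin was narrow, 1324 in replicate 5 beside 1322 in replicate 4. With both libraries left out, 8 of the 10 transcripts were still called higher (14.8% of all genes), and the same 2, Ykt6 and Bnip1, did not pass.

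In the Sec24B knockdown 2 of the 10 transcripts passed, in opposite directions. Stx5a rose by 0.20 ± 0.06 (log2, adjusted p = 0.0301), where 7.53% of all genes were called higher, and Ykt6 fell by 0.24 on the log2 scale (SE 0.06, adjusted p = 0.0106), where 7.08% were called lower. The Ykt6 libraries held 2184, 2143, 2049, 1952 and 2022 normalised counts in the knockdown and 2366, 2365, 2546 and 2513 with 50 nM scrambled siRNA, so no knockdown library reached the lowest control. Stx5a libraries held 1185, 1187, 1180, 1084 and 1110 against 958, 991, 1013 and 1049, again without overlap. The Stx5a call was near the threshold: adjusted p was 0.054 in edgeR on the recovered reads and 0.0521 in limma-voom. It was also lost when replicate 1, 2 or 3 of the control, or replicate 1, 2 or 3 of the knockdown, was left out (adjusted p between 0.06 and 0.1). Ykt6 passed in each of these settings, with log2 fold changes of -0.26 to -0.22.

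The other 8 transcripts did not pass in the Sec24B knockdown. Use1 had the largest estimate, 978 ± 53.5 normalised counts (SD, n = 5) against 815 ± 86.5 (n = 4), a log2 fold change of 0.27 ± 0.12 (adjusted p = 0.136); in a fit of these 2 groups alone it passed (adjusted p = 0.00445). Sec22b was 745 ± 28.3 against 811 ± 50.6, a log2 fold change of -0.12 with a 95% confidence interval of -0.25 to 0.003. Bet1, at 286 ± 31.9 against 269 ± 9.56, had an estimate of 0.08 and an interval of -0.11 to 0.27. Gosr2, at 2198 ± 51.4 against 2104 ± 114, had one of 0.06 (-0.05 to 0.17), and Gosr1, at 764 ± 27.4 against 712 ± 53.9, one of 0.10 (-0.03 to 0.24). Stx18 (472 ± 26.6 against 479 ± 8.97) and Bnip1 (367 ± 16.7 against 373 ± 27.7) were both at -0.02, and Scfd1 (760 ± 44.8 against 797 ± 67.7) at -0.07. With both scrambled groups pooled as the control, Bet1 (0.34, adjusted p = 0.0268) and Gosr1 (0.21, adjusted p = 0.0168) passed as well. In that setting 4470 genes were called in all, against 2868. The pooled control includes the 150 nM libraries, in which Bet1 stood at -0.46 and Gosr1 at -0.20 (log2, adjusted p = 0.061) against 50 nM.

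**Figure D3:**
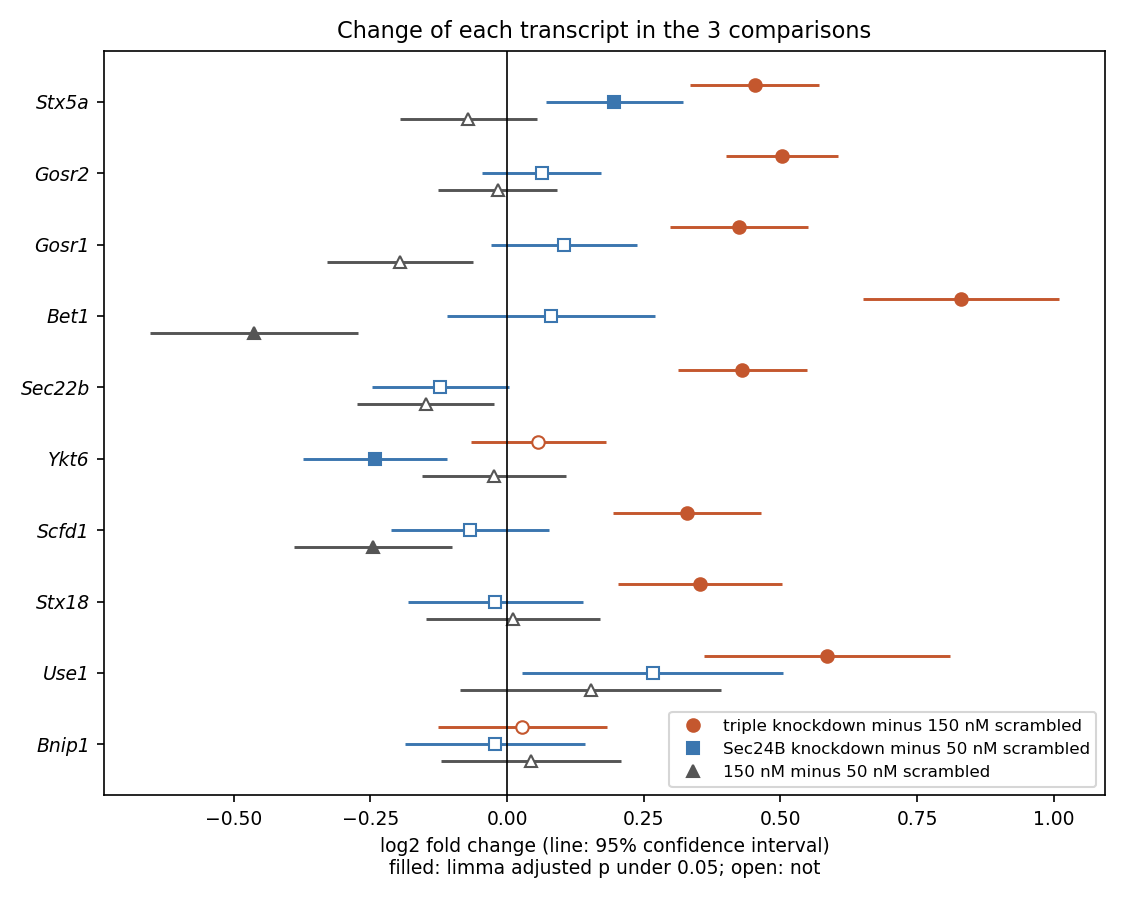
Log2 fold change of each transcript (horizontal axis) in the triple knockdown, the Sec24B knockdown and the 150 nM against the 50 nM scrambled libraries, with 95% confidence intervals; filled symbols passed an adjusted p of 0.05 in limma. The triple knockdown and the comparison of scrambled doses share the 150 nM libraries, in which Bet1 is lowest.

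The scrambled siRNA was used at 2 doses, and the controls differed for some of these transcripts. Bet1 was lower at 150 nM than at 50 nM, 196 ± 20.9 (SD, n = 5) against 269 ± 9.56 (n = 4) normalised counts with no overlap (log2 fold change -0.46 ± 0.09, adjusted p = 0.00188). Scfd1 was also lower, 672 ± 46.4 against 797 ± 67.7 (-0.24 ± 0.07, adjusted p = 0.0279), although its libraries overlapped; 4.1% of all genes were called lower. The Scfd1 call was lost when 150 nM replicate 2, 3 or 4, or 50 nM replicate 1, 2 or 3, was left out (adjusted p up to 0.111). Gosr1 stood at -0.20 ± 0.07 on the log2 scale (adjusted p = 0.061), and the remaining 7 transcripts lay between -0.15 and 0.15. Dose and any other difference between the sets of control libraries cannot be told apart. Set against the 50 nM libraries, 7 of the 10 transcripts were called higher in the triple knockdown, as were 16.4% of all genes, Scfd1 being the one lost. There the log2 fold change was 0.38 for Stx5a (adjusted p = 2.62e-05), 0.49 for Gosr2 (adjusted p = 9.79e-08) and 0.36 for Stx18 (adjusted p = 0.000691). Ykt6 (0.03, adjusted p = 0.742) and Bnip1 (0.07, adjusted p = 0.544) did not pass.

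The effects of the 2 knockdowns, each against its own control, differed for 8 transcripts, all with the more positive log2 fold change in the triple knockdown; 7.44% of all genes were called in that direction. The difference of log2 fold changes was 0.75 ± 0.13 for Bet1 (adjusted p = 0.000158), 0.55 ± 0.08 for Sec22b (adjusted p = 4.39e-05) and 0.44 ± 0.07 for Gosr2 (adjusted p = 0.000127). For Ykt6 it was 0.30 ± 0.09 (adjusted p = 0.0197), between a log2 fold change of 0.06 in the triple knockdown, which also targets Sec24B, and one of -0.24 in the Sec24B knockdown. Use1 (0.32 ± 0.16, adjusted p = 0.193) and Bnip1 (0.05 ± 0.11, adjusted p = 0.821) did not pass. For Use1 the estimate was 0.20 (adjusted p = 0.301) without triple knockdown replicate 1 and 0.09 (adjusted p = 0.599) without replicates 1 and 5. The difference for Stx5a, 0.26 ± 0.08 (adjusted p = 0.0374), was 0.20 (adjusted p = 0.0716) without triple knockdown replicates 1 and 5. A comparison of the knockdowns with each other needs no scrambled library, but it may compare different total doses of siRNA. The total dose in the triple knockdown is not stated, and any difference in dose stays within such a comparison. The part of dose in the values that follow was not tested. In the authors' deposited table, 7 of the 10 transcripts were higher in the triple than in the Sec24B knockdown at their adjusted p below 0.05, as were 17.7% of the 18262 genes with such a p. The authors' deposited table gives the largest log2 fold change to Use1 (0.50), then Gosr2 (0.42), Sec22b (0.41) and Stx18 (0.39). In the authors' deposited table Bet1 stood at 0.29, and Scfd1 (0.15, adjusted p = 0.062), Gosr1 (0.13, adjusted p = 0.087) and Bnip1 (0.10, adjusted p = 0.339) did not pass.

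Partners of these SNAREs moved in both directions in the triple knockdown. Of 6 genes that take SNARE complexes apart or act with those that do, 2 rose and 2 fell, beside 16.8% and 17.2% of all genes. Nsf, the ATPase that separates spent SNARE bundles, fell from 1415 ± 44.6 to 1029 ± 45.8 normalised counts (SD, n = 5; log2 fold change -0.46 ± 0.05, adjusted p = 9.28e-08). Napa, whose product α-SNAP brings NSF to those bundles, rose from 2164 ± 38.4 to 2790 ± 452 (0.35 ± 0.08, adjusted p = 0.000702), and by 0.20 (adjusted p = 0.00443) without replicates 1 and 5 or 0.53 against the 50 nM control. The ATPase and its adaptor thus moved in opposite directions in the same libraries. In the Sec24B knockdown, where 7.08% of all genes were lower, 2 of the 6 fell, Nsf (-0.27 ± 0.05, adjusted p = 0.00101) and Vcp, a related ATPase (-0.19 ± 0.05, adjusted p = 0.0082).

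The NRZ complex tethers returning vesicles to the ER and holds BNIP1 and USE1. Of its 3 genes, Zw10 fell in the triple knockdown (-0.21 ± 0.06, adjusted p = 0.0061), and Rint1 (-0.05 ± 0.05) and Nbas (0.13 ± 0.07) did not pass. Nbas passed without replicates 1 and 5 (0.18, adjusted p = 0.04), and against the 50 nM control Rint1 passed (-0.21, adjusted p = 0.00497) and Zw10 was at -0.35. In the Sec24B knockdown Rint1 fell (-0.28 ± 0.06, adjusted p = 0.00111), while Zw10 was at -0.10 ± 0.06 and Nbas at -0.02 ± 0.07. Among 10 Golgi tethers, the long tethers Uso1 and Golga2 and the COG complex, 7 rose in the triple knockdown, with a median log2 fold change of 0.17. Of all genes tested 16.8% were called higher, and of genes with a mean of at least 100 normalised counts, 24.7%. With the 50 nM control 5 tethers were called higher, beside 16.4% of all genes. Cog8 (0.42 ± 0.07, adjusted p = 2.87e-05) and Cog6 (0.36 ± 0.07, adjusted p = 0.000245) had the smallest adjusted p, and Cog6 also rose in the Sec24B knockdown (0.24 ± 0.07, adjusted p = 0.0324).

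**Figure D4:**
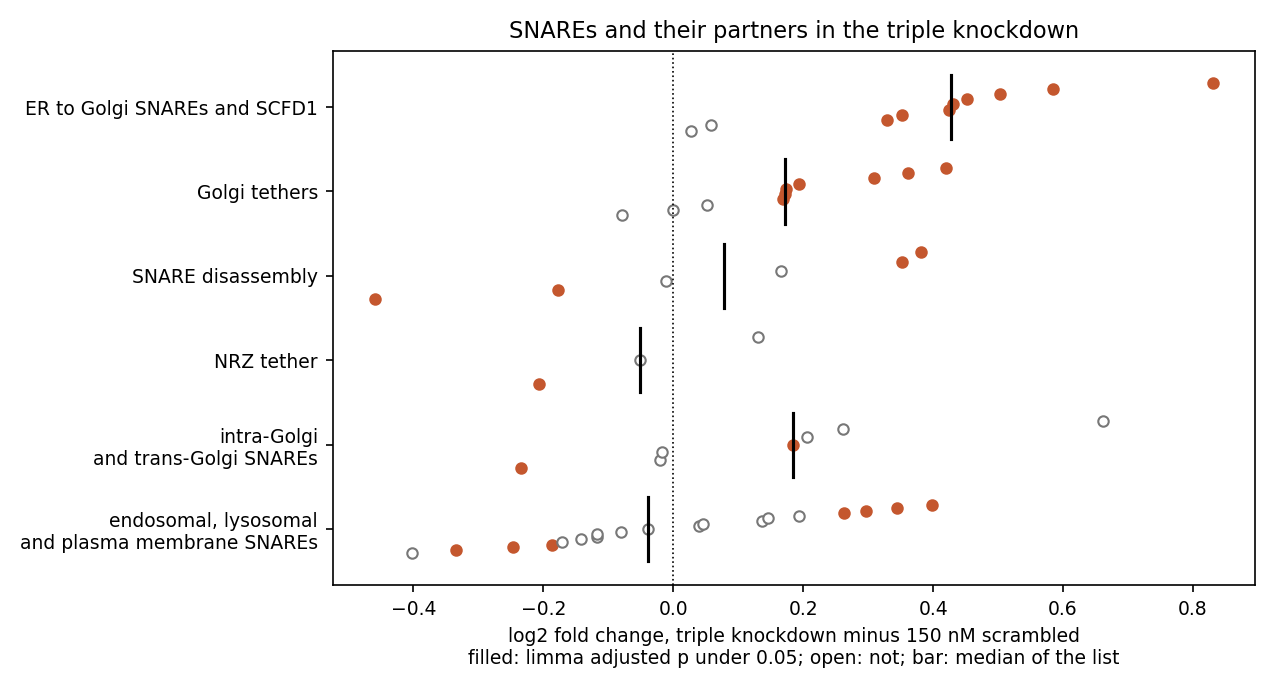
Log2 fold change in the triple knockdown against 150 nM scrambled siRNA (horizontal axis) of every tested gene in 6 lists, filled where limma's adjusted p was below 0.05, with a bar at each list's median. The median of the 10 ER to Golgi genes is 0.43, that of the Golgi tethers 0.17, and that of the endosomal, lysosomal and plasma membrane SNAREs -0.04.

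SNAREs of other compartments were measured beside them. Of 7 SNAREs of the Golgi and trans-Golgi or SEC22 relatives, 1 rose and 1 fell in the triple knockdown, shares near those of all genes (16.8% and 17.2%): Stx6, a Qc-SNARE of the trans-Golgi network and endosomes (0.18 ± 0.06, adjusted p = 0.0173), and Sec22c (-0.23 ± 0.09, adjusted p = 0.0489). Sec22c lost its call without replicates 1 and 5 (adjusted p = 0.154) and against the 50 nM control (adjusted p = 0.691), where Stx6 was at 0.35. Stx6 also rose in the Sec24B knockdown (0.27 ± 0.06, adjusted p = 0.00424). The endosomal, lysosomal and plasma membrane list has 22 genes, of which 19 were tested: 4 rose and 3 fell, also near the shares of all genes, with a median of -0.04. Vti1b, a Qb-SNARE of late endosomes, rose by 0.34 ± 0.08 (adjusted p = 0.00181), or by 0.19 (adjusted p = 0.0146) without replicates 1 and 5. Stx12, an endosomal Qa-SNARE, fell in the triple knockdown (-0.33 ± 0.05, adjusted p = 2.84e-05) and in the Sec24B knockdown (-0.30 ± 0.06, adjusted p = 0.000747), in which Snap29 fell too (-0.24 ± 0.08, adjusted p = 0.0359).

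For the transcript with the smallest adjusted p in each knockdown, the genes with the most similar profile were sought among 10433 genes with a mean of at least 100, as the smallest root mean square difference of centred log2 values over the 19 libraries. Nearest to Gosr2 were Sec61a1, the channel subunit of the ER translocon (0.065 log2 units), Wipi2, a phosphoinositide-binding protein of autophagy (0.074), and Srprb, a subunit of the signal recognition particle receptor (0.074); the median over all genes was 0.273. Nearest to Ykt6 were the translation factor genes Eif4a1 (0.045) and Eif5a (0.058) and the mitochondrial superoxide dismutase gene Sod2 (0.056), beside a median of 0.225. The differences are not scaled, so genes that change little lie close to each other. In the Sec24B knockdown, for which Ykt6 was picked, Eif4a1 did not pass (log2 fold change -0.17, adjusted p = 0.113). Eif5a (-0.26, adjusted p = 0.00898) and Sod2 (-0.21, adjusted p = 0.0389) fell. Sec61a1, for example, was at 3985 normalised counts on average with 150 nM scrambled siRNA and at 5498 in the triple knockdown.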

How the data were processed

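RNA was TRIzol-extracted, converted to cDNA and sequenced in 19 libraries, per the labels' protocols. Per the submitters' processing notes the tools were Trimmomatic 0.27, FastQC 0.10.1, TopHat2 2.0.8 and Partek 6.6, and the builds, both human, hg19 and GRCh37. Yet 19666 of 19716 gene IDs are in mouse GENCODE M21, and 99% of these have the same start and end, so GRCm38 coordinates are used. Read counter, normalisation method and strand setting are not given in the sources used here. The authors deposited signal values, namely reads scaled by a single factor in each library with 2 decimals kept. Division by each library's step recovered whole reads for 99.98% to 100% of values within 0.0055, and these reads were used for alternatives with edgeR 4.0.16, DESeq2 1.42.0 and limma-voom. Log2 fold changes and adjusted p-values deposited by the authors were used only where named.

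Groups came from the sample labels. Log2 of the normalised count plus 1 was fitted by limma 3.58.1 under R 4.3.3 (trend on intensity, 4 group means, all 19 libraries); the pseudocount makes changes of low genes smaller. The 19635 genes that reached 1 in 4 or more libraries were tested, with two-sided p-values adjusted by Benjamini-Hochberg across all genes and a threshold of 0.05. The steps were tested on simulated data in which all genes and groups had the same spread beyond counting error. That test does not cover groups of unequal spread. Named genes are the 10 transcripts, the Sec24 genes, up to 2 called genes per partner list and knockdown (lists of 3 genes whole), the 3 nearest profiles, and annotated genes with counts that overlap a member. One partner list, of other SM proteins, is not reported here. The members and lists were chosen with earlier results of these data known. Promoter sequences are from RefSeq (GRCm38.p6). Reads carry no molecular identifiers, so depth limits only counting error. Alternatives changed the pseudocount, filter, scaling, control, replicates and test. The control swap and the omission of 2 triple knockdown libraries, for members and partners, were chosen after seeing the data.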

Additional observations from a re-analysis of the deposited data

Results flagged for a closer look

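In the 150 nM scrambled group the Gosr2 value of replicate 1, 1952.41 normalised counts, lay below the other 4 (2077 to 2126). The gap to the next library was 0.717 of the group's range, just past the cut-off for a flag. It was the only library flagged in the 40 sets of libraries looked at (10 transcripts in 4 groups). Chance flags about 1 set in 20, so 1 flag in 40 sets is no more than chance gives. Leaving out any 1 library kept the log2 fold change of Gosr2 in the triple knockdown between 0.47 and 0.52.

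The effect of the triple knockdown, minus that of the Sec24B knockdown, each against its own control, passed limma's test of the difference for Bet1 (0.75, adjusted p = 0.000158), Gosr1 (0.32, adjusted p = 0.0144), Gosr2 (0.44, adjusted p = 0.000127), Sec22b (0.55, adjusted p = 4.39e-05), Stx5a (0.26, adjusted p = 0.0374), Ykt6 (0.30, adjusted p = 0.0197), Stx18 (0.37, adjusted p = 0.0162) and Scfd1 (0.40, adjusted p = 0.00527), in log2 units. These values include the difference between the scrambled doses, which was -0.46 for Bet1, -0.24 for Scfd1, -0.20 for Gosr1 (adjusted p = 0.061) and -0.15 for Sec22b (adjusted p = 0.136), 150 minus 50 nM.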

How the results depend on the processing

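Of 950 values of single transcripts under alternatives, 895 kept their direction and side of the threshold, 30 lost and 8 gained a call, and 17 changed sign; the cause was not tested. The count of 8 transcripts in the triple knockdown held in every alternative but the 50 nM control (7). In the Sec24B knockdown the count of 2 became 4 with the scrambled groups pooled (4470 genes in all, against 2868). It was 1 with edgeR (2927 genes) and 1 with limma-voom (2972 genes). With single libraries left out it was 1 to 2 (2132 to 2537 genes). Between the scrambled doses it was 1 to 3 with single libraries left out (899 to 2174 genes, against 1737), and a fit of these 2 groups alone called 2816 genes. Same-numbered libraries deviated together with r of -0.26 to 0.237 over 12627 genes. Libraries with different numbers were not compared in this way, so whether replicate numbers pair libraries was not settled. Fits with a replicate block held only the groups compared, so fits of those groups without a block are given beside. In the triple knockdown the count was 8 with the block (4728 genes) and 8 without (5500 genes, against 6680 in the main fit). In the Sec24B knockdown it was 3 in both (2705 and 4145 genes). Use1 passed in both (0.27, adjusted p = 0.0416 with the block and 0.00445 without). Between scrambled doses it was 1 with the block (1534 genes), where Scfd1 was lost (adjusted p = 0.0558), and 3 without (2816 genes). For the difference between knockdowns, which uses all 4 groups, it was 8 with the block (3108 genes) and 8 without (3107 genes). Sign changes were near 0: in the Sec24B knockdown Stx18 (0.0063) and Bnip1 (0.0058) with upper-quartile scaling, Scfd1 with pooled controls (0.0681), and, over single libraries left out, Stx18 (-0.0505 to 0.0009) and Bnip1 (-0.0631 to 0.0230); in the triple knockdown without replicates 1 and 5 Ykt6 (-0.0235) and Bnip1 (-0.0621), and over single libraries left out Ykt6 (-0.0033 to 0.0904) and Bnip1 (-0.0142 to 0.0808); between scrambled doses, over single libraries, Gosr2 (-0.0393 to 0.0088) and Stx18 (-0.0229 to 0.0422); and in the difference Bnip1 without replicates 1 and 5 (-0.0403). The difference for Stx5a lost its call with upper-quartile scaling (0.24, adjusted p = 0.0538), limma-voom (0.26, adjusted p = 0.0508) and in 11 of 19 omissions of 1 library (0.22 to 0.29). Limits: the study measures RNA only, the controls differ in siRNA dose, and the lowest group mean of the 10 transcripts was 196 normalised counts, at which counting error is part of the spread.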
